A study of Neurospora crassa with 6 samples.

Results

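The transcript levels of wild type (wt) Neurospora crassa in dual stress (DS) were compared with those of the same strain left at 30°C. N. crassa is a filamentous fungus, and wt here is the standard laboratory strain OR74A. Conidiospores, the asexual spores, were germinated in liquid medium at 30°C for 5 hr with 0.05% glucose. The wt DS culture was then held for 2 hr at 45°C with 2-deoxyglucose (2-DG), and the wt 30°C culture stayed for 1 hr more at 30°C, so temperature, 2-DG and time in the last step all differ between the 2 libraries and cannot be told apart by this comparison. The other wt library, heat shock (HS), had 2 hr at 45°C without 2-DG. The other strain, os2 (UCLA 80A, in an SL4 background), carries a mutation in the gene of the Os2 stress kinase. It was sampled in the same 3 conditions (os2 DS, os2 HS, os2 30°C). Its background is not the OR74A of wt, so the mutation and the background cannot be told apart where the strains differ. In all, 2 of the 6 libraries make up the comparison, and levels are deposited as FPKM, a count of sequenced fragments corrected for transcript length and library size. Of 9730 genes, the 8098 with a mean of at least 1 FPKM over the 6 libraries were kept, and the 8005 of these above 0 in both wt DS and wt 30°C were compared as log2 of wt DS over wt 30°C. There was 1 library per condition. No difference has a replicate check, no p-value is given, and "higher" and "lower" describe these 2 libraries.

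Heat unfolds proteins, and fungal cells answer by transcribing chaperone genes through heat shock factor, a transcription factor that binds their promoters. Small Hsps hold unfolded proteins, Hsp70 and Hsp90 refold them with the help of cochaperones, and the Hsp100 disaggregases pull proteins out of aggregates. 2-DG is a glucose analogue that is phosphorylated by hexokinase but cannot pass through glycolysis, so that it hampers the use of glucose. Fungi that are short of glucose are known to release carbon-repressed genes and to slow growth.

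The data rest on fragments whose number can be partly read back from the file. A part of the low FPKM values stepped in whole multiples of the worth of 1 fragment. Of 2371 low genes in wt 30°C, 25.7% came within 0.02 of a whole number, and of 2770 in wt DS 17.2%, where evenly spread values would give 4%. In wt 30°C, 40 of 223 of the lowest genes lay within 0.1% of a single line of gene length against 1/FPKM. From that line, 1 FPKM in a gene of 2 kb stood for about 15.2 fragments in wt DS and 18.4 in wt 30°C. With lengths of whole gene spans, introns included, the libraries came to at most about 1.40e+07 fragments in wt DS and 1.34e+07 in wt 30°C, against 7.22e+06 to 1.52e+07 in the other 4. The study gives a larger read total for every library, and the largest for wt HS, which came lowest in this estimate. The reason was not tested. The estimated fragments are used for counting error only. Of the 1556 genes that were at least 2-fold higher in wt DS, 309 had fewer than 10 estimated fragments in wt 30°C.

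Set against wt 30°C, 1556 genes (19.4% of those compared) had at least 2-fold more transcript in wt DS and 1208 (15.1%) at least 2-fold less. The larger differences were mostly upward. Past 4-fold, 709 genes (8.86%) were higher and 153 (1.91%) lower, 10.8% together. Of these 709 genes, 221 (31.2%) had fewer than 10 estimated fragments in wt 30°C, against 4.97% of all genes compared. The filter on the mean over 6 libraries keeps genes that are near 0 in wt 30°C but high elsewhere. This favours upward ratios, and its part in the uneven split was not tested. The median log2 ratio was 0.00, with a 10th percentile of -1.20 and a 90th of 1.82. As a yardstick, the libraries os2 30°C and wt 30°C, from different strains under the same condition, differed at least 2-fold in 6% of genes (2.99% higher and 3% lower in os2), against 34.5% between wt DS and wt 30°C. That yardstick shares the wt 30°C library and includes the strain difference. In wt HS, set against the same wt 30°C library, 28.3% of genes were past 2-fold higher and 27.7% lower, 55.9% together.

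A few very abundant transcripts account for the larger sum of the wt DS column. The 10 most abundant transcripts of wt DS summed to 204691 FPKM in wt DS and 35053 FPKM in wt 30°C, which is 22.8% and 4.87% of each column. All other genes summed to 694885 FPKM in wt DS and 684497 FPKM in wt 30°C. If both columns are given equal totals instead, every log2 ratio shifts by -0.32, and 1173 genes are then past 2-fold higher and 2005 past 2-fold lower. List counts given below with equal column totals have these numbers as their background, and not the shares of the deposited values. With the deposited values the median gene is at 0, and the changes given here are relative to it.

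**Figure D1:**
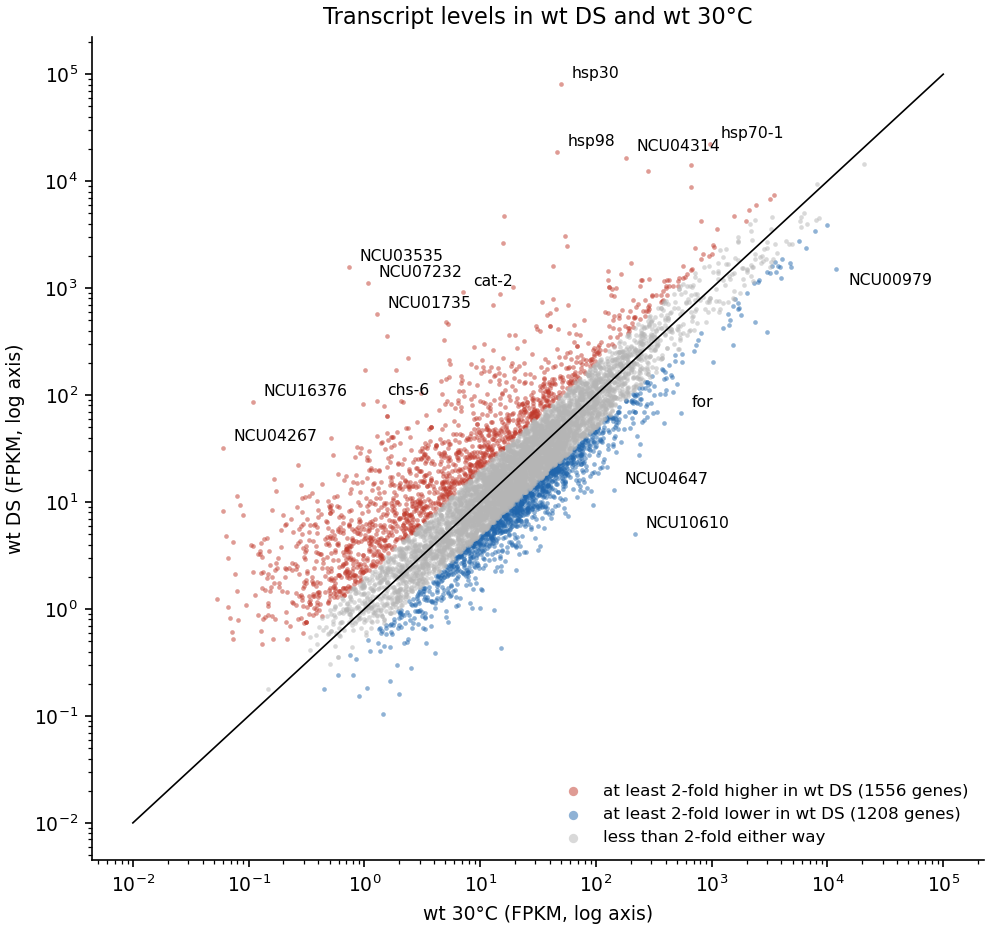
FPKM of each compared gene in wt DS (vertical, log axis) against wt 30°C (horizontal, log axis), with equal levels on the black line. The 1556 genes at least 2-fold higher in wt DS are in red and the 1208 lower ones in blue, and 13 genes listed below 0.01 FPKM in 1 of the libraries are not drawn. The red points reach much farther from the line than the blue ones, most of all for genes that are low in wt 30°C.

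The 10 most abundant transcripts in wt DS were led by chaperones. Hsp30, a small Hsp, had 80639 FPKM in wt DS, 11079 in wt HS and 49.9 in wt 30°C. hsp70-1 (NCU09602), the heat-inducible Hsp70, had 22066, 2268 and 971 FPKM in wt DS, wt HS and wt 30°C, a log2 ratio of 4.51 between DS and 30°C. hsp98 (NCU00104), a cytosolic disaggregase of the Hsp100 family, had 18575 FPKM in wt DS, 443 in wt HS and 46.5 in wt 30°C. For these 3 chaperones DS gave the highest of the 3 wt levels, and the same held for hsp80 (NCU04142), which codes for Hsp90, with 14294 FPKM in wt DS, 2087 in wt HS and 667 in wt 30°C. Polyubiquitin (ubi, NCU05995), the tag for proteins to be degraded, had 8771 FPKM in wt DS, 1044 in wt HS and 658 in wt 30°C. Others among the 10 were higher in HS than in DS. ccg-1 (NCU03753), a clock-controlled gene that is repressed by glucose, had 12535 FPKM in wt DS, 51910 in wt HS and 282 in wt 30°C. NCU04314, which has no symbol in the annotation, had 16567 FPKM in wt DS, 36690 in wt HS and 183 in wt 30°C, a log2 ratio of 6.50. The remaining 3 were already abundant at 30°C: aac (NCU09477), the ADP/ATP carrier of the mitochondrial inner membrane, had 9483 FPKM in wt DS and 8099 in wt 30°C, histone hH3 (NCU01635) had 7433 and 3431, and NCU16635, which the RefSeq table does not hold, had 14327 and 20666. The aac ratio of 0.23 on the log2 scale turned to -0.09 once both columns were given equal totals.

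Among genes with a mean of at least 10 FPKM, 7 of the 10 largest log2 ratios belonged to genes without a symbol. One of them, NCU00149, is listed at 1.69 FPKM in wt DS and at 4.13e-07 in wt 30°C, far below the worth of 1 fragment, so its ratio has no meaning as a fold. The largest ratio of the others was that of NCU03535 (chromosome II, 329641 to 331354, assembly NC12), with 1572 FPKM in wt DS, 36.0 in wt HS and 0.730 in wt 30°C, a log2 ratio of 11.07. The wt 30°C value stands for about 11.3 fragments, and the counting interval of the fold is 1236 to 4430 (95%, exact binomial on the estimated fragments). Of the 1714 bases of NCU03535, 1563 lie over the end of cys-3, the activator of sulfur acquisition genes. The cys-3 values were 85.5 FPKM in wt DS and 66.6 in wt 30°C, a log2 ratio of 0.36, though reads of the shared bases cannot be assigned without strand. The study itself reports cys-3 transcripts as well past 2-fold higher in wt DS over 30°C, unlike the deposited values. The reason for this disagreement was not tested.

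NCU07232 (chromosome V) had 1105 FPKM in wt DS, 1904 in wt HS and 1.07 in wt 30°C, a log2 ratio of 10.02. Its neighbour NCU07233 had 31.9 FPKM in wt DS and 0.927 in wt 30°C, a log2 ratio of 5.10. A pair on the same chromosome, NCU04267 and NCU04266, had log2 ratios of 9.06 and 7.40, and the levels of the 2 genes differed widely. NCU04266 had 2646 FPKM in wt DS and 15.6 in wt 30°C. NCU04267 had 32.3 FPKM in wt DS and 0.0605 in wt 30°C, the worth of about 1 fragment, and the counting interval of its fold is 98.8 to 21893. NCU16376, which lies 2 genes from hsp30 on chromosome I, had 86.3 FPKM in wt DS, 9.32 in wt HS and 0.109 in wt 30°C, again about 1 fragment in wt 30°C. NCU09365, between NCU16376 and hsp30, had 40.8 FPKM in wt DS and 1.76 in wt 30°C, a log2 ratio of 4.53. All 3 genes of this stretch were higher in wt DS, while hsp30's other neighbour, NCU10352, had a log2 ratio of 0.50. The other named rises without a symbol were NCU01735, with 569 FPKM in wt DS, 432 in wt HS and 1.28 in wt 30°C, and NCU07082, with 356, 108 and 1.56.

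Genes listed at 0 in wt 30°C and at 10 FPKM or more in wt DS numbered 7. The 5 highest were NCU07600 at 32.0 FPKM, NCU05158 at 26.2, NCU16905 at 15.6, the glycoside hydrolase gene gh11-2 (NCU07225) at 13.9 and NCU10591 at 12.7 FPKM in wt DS. In the other direction there was 1, NCU01383, listed at 0 in wt DS and in wt HS and at 10.5 FPKM in wt 30°C. No fold is given against a value listed at 0.

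The largest falls were smaller and nearly all in genes without a symbol. NCU10610 (chromosome V, 701414 to 703419) stood apart with 4.98 FPKM in wt DS, 3.27 in wt HS and 220 in wt 30°C, a log2 ratio of -5.46 and a fold of 44.1 lower. The others of the 10 lowest had log2 ratios between -3.45 and -2.96. Among them, for (NCU02274), the serine hydroxymethyltransferase that feeds one-carbon units to purine and methionine synthesis, had 68.0 FPKM in wt DS, 93.3 in wt HS and 546 in wt 30°C, 8.04-fold lower in wt DS. NCU00979, one of the most abundant transcripts at 30°C, had 1519 FPKM in wt DS, 680 in wt HS and 11860 in wt 30°C, a log2 ratio of -2.96. NCU04647, NCU02046, NCU16323, NCU05061, NCU00177, NCU01115 and NCU01458 make up the rest, with 2.34 to 27.5 FPKM in wt DS and 20.4 to 235 FPKM in wt 30°C. All 10 were lower in wt HS as well as in wt DS than in wt 30°C, where both comparisons share the wt 30°C library.

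**Figure D2:**
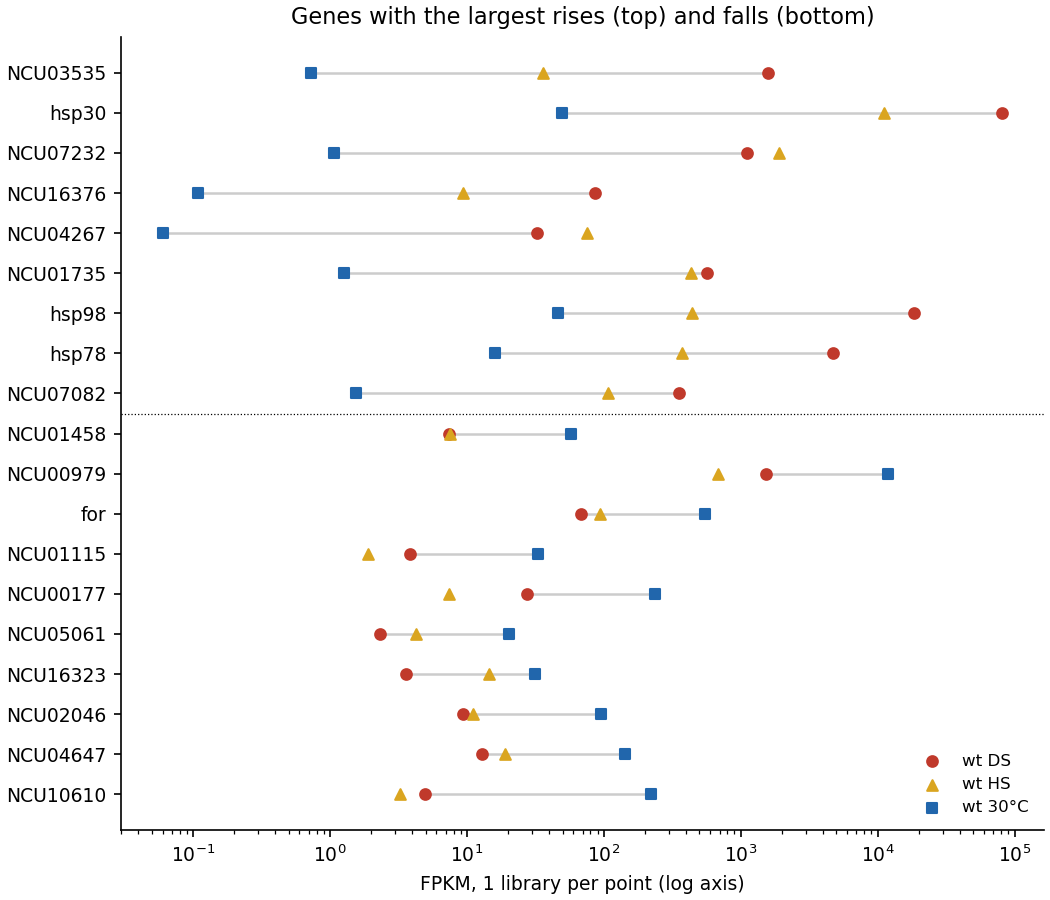
FPKM (log axis) of the genes with the largest rises (above the dotted line) and falls (below it) in wt DS against wt 30°C, with wt DS as red circles, wt HS as yellow triangles and wt 30°C as blue squares, 1 library per point. NCU00149 is left out. NCU16376 and NCU04267 start at about 1 fragment in wt 30°C, and NCU10610 has the longest line among the falls.

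The listed cytosolic chaperones were higher in wt DS. All 11 genes of the list of cytosolic chaperones and cochaperones were at least 2-fold higher in wt DS, with a median log2 ratio of 2.82, beside 19.4% higher and a median of 0.00 over all genes. The list comes from the study's protein tables, so its direction is not independent evidence. The lowest of them was Sti1 (NCU00714), which links Hsp70 to Hsp90, with 620 FPKM in wt DS, 285 in wt HS and 167 in wt 30°C, a log2 ratio of 1.89. The J-protein Sis1 (NCU03732), a partner of Hsp70, had 3038 FPKM in wt DS, 583 in wt HS and 54.6 in wt 30°C, a log2 ratio of 5.80. Hsp88 (NCU05269), an exchange factor of the Hsp110 family, had 977 FPKM in wt DS, 810 in wt HS and 138 in wt 30°C, so that DS and HS were close for it. The FPKM of the 11 genes summed to 126824 in wt DS, 18623 in wt HS and 2673 in wt 30°C.

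The organellar chaperones were less uniform. Of 7, 4 were at least 2-fold higher and 1 lower, beside 19.4% and 15.1% over all genes, with a median log2 ratio of 1.30. The mitochondrial disaggregase Hsp78 (NCU02630) had 4745 FPKM in wt DS, 371 in wt HS and 16.2 in wt 30°C. The mitochondrial chaperonin subunit Hsp10 (NCU04334) had 1222 FPKM in wt DS, 1204 in wt HS and 290 in wt 30°C. GrpE (NCU01516), the exchange factor of mitochondrial Hsp70, was the lower one, with 36.2 FPKM in wt DS, 29.6 in wt HS and 112 in wt 30°C. By symbol, 12 of 17 heat shock and related genes were at least 2-fold higher, 5 were within 2-fold and none was lower. Over all genes, 19.4% were higher and 15.1% lower. The pattern also took in a cytochrome P450 gene that is no chaperone. hsf-1 (NCU08512), the heat shock factor, had 33.8 FPKM in wt DS, 47.4 in wt HS and 10.8 in wt 30°C, whereas hsf-2 (NCU08480) had 22.6, 43.6 and 27.1. hsp70-2 (NCU02075), another member of the Hsp70 family, had 598 FPKM in wt DS, 134 in wt HS and 1166 in wt 30°C, the lowest log2 ratio of the list at -0.96.

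Among genes of protein breakdown, polyubiquitin and a proteasome regulator were higher. Another gene with ubi in its symbol, ubi::crp-6 (NCU04553), was 7.69-fold lower in wt DS than in wt 30°C, a log2 ratio of -2.94. Its symbol joins ubi to crp, which stands for a cytosolic ribosomal protein. Of 7 genes listed for such proteins, none had a ratio above 0 and 1 was at least 2-fold lower, beside 15.1% over all genes. Their median log2 ratio was -0.78. The study's own ratios of wt DS over 30°C put further ubiquitin genes past 2-fold higher, among them an E3 ligase and a RING-10 hydrolase. Beside ubi, rpn-4 (NCU01640), whose yeast counterpart activates proteasome genes, had 182 FPKM in wt DS, 228 in wt HS and 12.4 in wt 30°C, a log2 ratio of 3.87. Of the 31 genes of the proteasome list it was the one past 2-fold, and none was 2-fold lower. The median was 0.22, and -0.10 with equal column totals, so no direction can be given for the subunits. The list also took in pre-1, a pheromone receptor gene.

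Genes against reactive oxygen were higher more often than lower. Among 29 genes with an antioxidant or detoxification symbol, 15 were at least 2-fold higher and 1 lower in wt DS, beside 19.4% and 15.1% over all genes, with a median log2 ratio of 1.05. With equal column totals 10 were higher. The 4 catalases, which break down hydrogen peroxide, did not move together. cat-2 (NCU05770) had 918 FPKM in wt DS, 717 in wt HS and 7.13 in wt 30°C, and cat-1 (NCU08791) had 48.0, 153 and 3.64. cat-3 (NCU00355) had 15.0 FPKM in wt DS and 12.0 in wt 30°C, and cat-4 (NCU05169) had 6.27 and 9.55, both within 2-fold. mig-4 (NCU09040) and mig-8 (NCU03369) had log2 ratios of 4.81 and 3.72, and the single gene past 2-fold in the other direction was aod-1 (NCU07953), the alternative oxidase, with 26.4 FPKM in wt DS, 30.9 in wt HS and 59.5 in wt 30°C. In the overlapping list of 16 antioxidant enzymes named in the study's protein tables, 9 were higher, or 6 with equal column totals, and 1 was lower. That one was a DyP-type peroxidase (NCU09210), with 1.01 FPKM in wt DS and 8.57 in wt 30°C. A superoxide dismutase of the Fe/Mn type (NCU09560) had 995 FPKM in wt DS, 925 in wt HS and 149 in wt 30°C. Among 17 detoxification enzymes, 5 (29.4%) were higher and 1 lower, nearer to the share over all genes, led by S-hydroxymethylglutathione dehydrogenase (NCU11395), which oxidizes the glutathione adduct of formaldehyde, with 45.6 FPKM in wt DS, 216 in wt HS and 1.91 in wt 30°C.

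The listed glycolysis and pentose phosphate enzymes, taken from the study's protein tables, mostly stayed within 2-fold. The study's own ratios of wt DS over 30°C put other enzymes of these pathways past 2-fold. Glucokinase and 6-phosphogluconolactonase were higher there, and a phosphoglycerate mutase was lower. None of 10 glycolysis and pentose phosphate enzymes was 2-fold higher and 1 was lower, the NADP malic enzyme (NCU03651) with 4.69 FPKM in wt DS and 11.0 in wt 30°C. Their median log2 ratio was 0.39, and -1.84 in wt HS over the same wt 30°C library. The fermentation list was mixed. Of 9 fermentation and glycogen enzymes, 4 (44.4%) were at least 2-fold higher and none lower, beside 19.4% and 15.1% over all genes. Alcohol dehydrogenases past 4-fold made up 3 of them. adh-1 (NCU01754) had 197 FPKM in wt DS, 160 in wt HS and 8.31 in wt 30°C. NCU08402 had 168, 79.2 and 12.0, and NCU09285 had 370, 334 and 67.1. The other higher one was glycogen phosphorylase (NCU07027). Pyruvate decarboxylase (NCU02193), alcohol dehydrogenase III (NCU02476) and an NADP alcohol dehydrogenase (NCU04823) stayed within 2-fold, with log2 ratios of 0.14, 0.47 and 0.89. Among 24 sugar transporters and carbon regulators, 4 (16.7%) were higher and 3 (12.5%) lower, near the shares over all genes, and with equal column totals 3 were higher and 5 lower. clr-2 (NCU08042), the activator of cellulase genes, had 6.65 FPKM in wt DS, 13.7 in wt HS and 0.468 in wt 30°C. qa-4 (NCU06024), of quinic acid breakdown, had 8.24 FPKM in wt DS, 12.0 in wt HS and 1.06 in wt 30°C. The 3 lower ones were col-20 (NCU00945), with 11.3 FPKM in wt DS and 28.2 in wt 30°C, and the genes of 2 regulators: cre-1 (NCU08807), the carbon catabolite repressor, had 59.6 FPKM in wt DS, 38.5 in wt HS and 150 in wt 30°C, and col-26 (NCU07788) had 12.9, 15.1 and 44.1. Of the 65 glycoside hydrolase and cellulase genes compared, 20 (30.8%) were higher and 10 (15.4%) lower, or 14 and 17 with equal column totals. They ranged from gh76-4 (NCU06319) at 40.8 FPKM in wt DS and 1.69 in wt 30°C to gh47-4 (NCU05836) at 21.4 in wt DS and 114 in wt 30°C.

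Purine and pyrimidine synthesis held the largest share of lower genes of any list of at least 5 genes. All 8 purine and pyrimidine synthesis genes had a log2 ratio below 0, and 6 were at least 2-fold lower, beside 15.1% over all genes. Their median was -1.54. ad-3A (NCU03166), of purine synthesis, had 23.5 FPKM in wt DS, 9.70 in wt HS and 114 in wt 30°C. pyr-4 (NCU03488), the orotidine phosphate decarboxylase of pyrimidine synthesis, had 69.3 FPKM in wt DS, 26.8 in wt HS and 334 in wt 30°C. The smallest change was that of ad-9 (NCU00843), with 57.0 FPKM in wt DS and 86.6 in wt 30°C.

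Of 63 amino acid synthesis genes, 18 (28.6%) were at least 2-fold lower and 2 (3.17%) higher, beside 15.1% and 19.4% over all genes, with a median log2 ratio of -0.43. One of the 2 higher ones, NCU02397, carries the symbol ilv-5 and is described in the study as a pyruvate decarboxylase. lys-3 (NCU03010), of lysine synthesis, had 12.4 FPKM in wt DS, 15.1 in wt HS and 78.2 in wt 30°C. arg-1 (NCU02639) and arg-10 (NCU08162), the last enzymes of arginine synthesis, had 108 and 63.0 FPKM in wt DS, and 459 and 279 FPKM in wt 30°C. cys-18 (NCU07930) and met-6 (NCU00892), named for cysteine and methionine requirements, had log2 ratios of -2.34 and -2.53. Methylenetetrahydrofolate reductase (NCU07690), which makes the methyl donor of methionine synthesis, had 49.5 FPKM in wt DS, 14.9 in wt HS and 196 in wt 30°C, a log2 ratio of -1.98. It and for were the 2 lower members of the sulfur metabolism list of 9 genes, of which 6 had a ratio above 0. The median of that list was 0.62, and 0.00 with a filter of 10 FPKM, and its highest member was a taurine dioxygenase (NCU07819), with 6.11 FPKM in wt DS and 1.24 in wt 30°C. cpc-1 (NCU04050), the activator of amino acid synthesis genes under starvation, had 560 FPKM in wt DS, 498 in wt HS and 1801 in wt 30°C, a log2 ratio of -1.69.

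The mitochondrial lists stayed mostly within 2-fold, with members past it in both directions. Of 13 genes for mitochondrial membrane proteins, transport and proteases, 5 were higher and none lower, beside 19.4% and 15.1% over all genes. With equal column totals 1 was higher and 2 lower. Porin (NCU04304), the channel of the outer membrane, had 1889 FPKM in wt DS, 171 in wt HS and 814 in wt 30°C, and the highest ratio, 1.64, was that of a dicarboxylate transporter (NCU10732). Of 17 genes picked by symbol for cytochrome complexes and ATP synthase, 3 were higher and 2 lower. They ranged from cyt-5 (NCU06308) at 56.2 FPKM in wt DS and 21.6 in wt 30°C to cyt-18 (NCU03030) at 15.4 in wt DS and 38.5 in wt 30°C. Both cyt-5 and cyt-18 were caught by the name pattern and are not subunits of these complexes. None of 10 respiratory chain genes from the protein tables passed 2-fold. None of 29 complex I genes was 2-fold higher and 2 were lower, nuo40 (NCU02373) with 131 FPKM in wt DS and 274 in wt 30°C and nuo11.5 (NCU01360) with 60.6 and 147, and with equal column totals 10 were lower. Of 22 genes in the list for mitochondrial import, 5 (22.7%) were lower, or 8 with equal column totals, and none was higher, and the lowest was tim9 (NCU00198), a small chaperone of the intermembrane space, with 147 FPKM in wt DS, 151 in wt HS and 455 in wt 30°C. The highest value in that list belonged to pep4, a vacuolar protease gene that its name pattern also caught. Among 14 vacuolar ATPase genes, 1 was higher (vma-10, NCU05118), though not with equal column totals, and 2 lower, of which vma-16 (NCU09747) had 50.4 FPKM in wt DS, 81.9 in wt HS and 145 in wt 30°C.

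**Figure D3:**
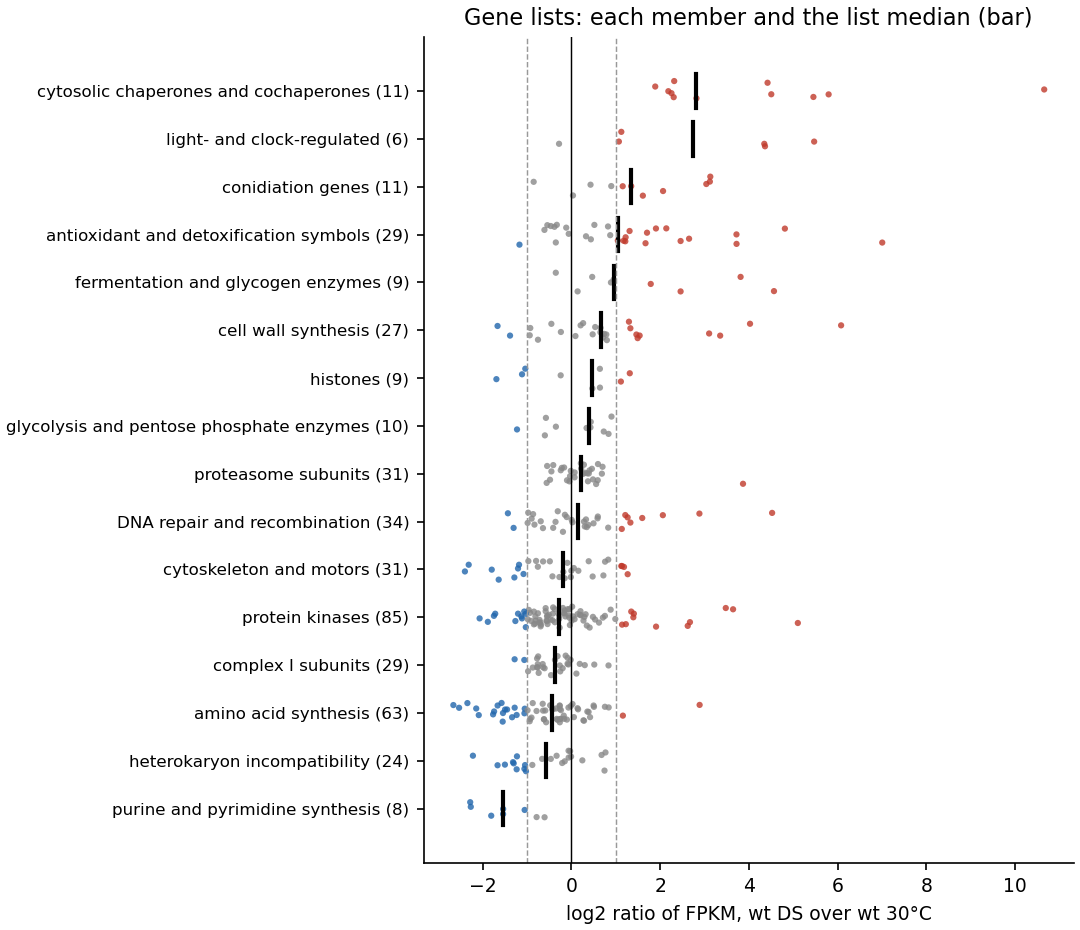
Log2 ratio of FPKM, wt DS over wt 30°C, for each member (point) of 16 gene lists, with the number compared in brackets and the list median as a black bar. Red points are at least 2-fold higher and blue points at least 2-fold lower in wt DS, with the 2-fold limits dashed. All 11 cytosolic chaperones lie past the upper limit. The most blue points are in the lists of amino acid synthesis (18), protein kinases (11) and heterokaryon genes (10).

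Core histone and variant genes lay on different sides of 0. Of the 9 histone genes, 2 (22.2%) were past 2-fold higher and 3 (33.3%) lower, beside 19.4% and 15.1% over all genes. The core histones hH2B (NCU02435) and hH3 were 2.49-fold and 2.17-fold higher in wt DS, and hH2B had 6035 FPKM in wt DS, 258 in wt HS and 2424 in wt 30°C. With equal column totals their log2 ratios were 0.99 and 0.79, so neither passed 2-fold, while the 3 lower genes still did. hH2A (NCU02437) had 4608 FPKM in wt DS and 3321 in wt 30°C, and both hH4 genes had a log2 ratio of 0.64, within 2-fold. The 3 lower members were the variants hH4v (NCU04338), hH2Az (NCU05347) and hH3v (NCU00145), with 9.47, 32.6 and 39.7 FPKM in wt DS and 30.6, 70.6 and 81.6 FPKM in wt 30°C. Libraries were made from polyadenylated RNA, and whether the polyadenylated share of histone transcripts differed was not tested.

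Of 31 genes with a cytoskeleton or motor symbol, 4 (12.9%) were higher and 8 (25.8%) lower, beside 19.4% and 15.1% over all genes. With equal column totals none was past 2-fold higher and 11 were lower, where the lower ones over all genes rose from 1208 to 2005. Among the 4 were tubulins: β-tubulin (Bml, NCU04054) had 1283 FPKM in wt DS, 125 in wt HS and 588 in wt 30°C, and the α-tubulin tba-2 (NCU09468) had 614, 194 and 270. The kinesin kin-3 (NCU03715) was the highest of the list, with 17.7 FPKM in wt DS, 4.64 in wt HS and 7.36 in wt 30°C. The lower ones included ro-7 (NCU03563) and ro-4 (NCU04247), subunits of dynactin, which links dynein to its cargo. ro-7 had 3.84 FPKM in wt DS, 2.66 in wt HS and 20.3 in wt 30°C, and ro-4 had 15.5, 15.8 and 53.7. arp-8 (NCU06238), with 4.27 FPKM in wt DS and 21.2 in wt 30°C, is an actin-related protein of a chromatin remodelling complex and not of the cytoskeleton.

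Of 24 genes in the list of heterokaryon incompatibility and fusion, 10 were at least 2-fold lower, beside 15.1% over all genes, and none higher, with a median log2 ratio of -0.56. The list is mixed. Of its 9 ham genes, named for hyphal fusion, 3 were lower, and 5 of the 10 lower genes were un genes, which have other functions. ham-6 (NCU02767), required for hyphal fusion, had 14.9 FPKM in wt DS, 6.13 in wt HS and 69.6 in wt 30°C. The highest ratio in the list was that of un-4 (NCU05515), with 112 FPKM in wt DS and 65.8 in wt 30°C. Prm1 (NCU09337), a membrane fusion protein outside the list and picked after its values were seen, had 12.6 FPKM in wt DS, 11.8 in wt HS and 90.7 in wt 30°C.

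Of 29 clock and light genes, 16 were at least 2-fold higher in wt DS and none lower, beside 19.4% and 15.1% over all genes, with a median log2 ratio of 1.08, and 13 stayed within 2-fold. With equal column totals 10 were higher and 2 lower. The 6 past 4-fold were ccg-1, ccg-9 (NCU09559), bli-3 (NCU07267), ccg-13 (NCU08907), csp-1 and wc-1. bli-3 had 212 FPKM in wt DS, 1535 in wt HS and 10.4 in wt 30°C, and ccg-13 had 26.7, 311 and 1.71, so both were far below HS. wc-1 (NCU02356), the blue light receptor of the White Collar complex, had 61.6 FPKM in wt DS, 26.3 in wt HS and 9.82 in wt 30°C. csp-1 (NCU02713), a repressor controlled by that complex, had 127 FPKM in wt DS, 56.9 in wt HS and 14.5 in wt 30°C. The partner wc-2 (NCU00902) had 12.4 FPKM in wt DS and 19.3 in wt 30°C, and the clock gene frq (NCU02265) had 57.6 and 51.6, both within 2-fold. The lowest of the list was prd-4 (NCU02814), a checkpoint kinase, with 11.5 FPKM in wt DS, 41.3 in wt HS and 21.0 in wt 30°C.

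Of 11 conidiation genes, 7 were at least 2-fold higher, beside 19.4% over all genes, and none lower, with a median log2 ratio of 1.35. con-8 (NCU09235) had 187 FPKM in wt DS, 313 in wt HS and 21.5 in wt 30°C, and con-6 (NCU08769) had 52.7, 226 and 6.40. Beside csp-1, which the list shares, fld (NCU09739) also passed 4-fold, with 26.4 FPKM in wt DS, 50.4 in wt HS and 6.30 in wt 30°C. con-10 (NCU07325) did not follow them in DS, with 35.7 FPKM in wt DS, 585 in wt HS and 34.9 in wt 30°C. The hydrophobin gene eas (NCU08457), which coats dry conidia, had 415 FPKM in wt DS, 30.7 in wt HS and 308 in wt 30°C. The developmental regulator fl (NCU08726) was the lowest, at 3.26 FPKM in wt DS and 5.87 in wt 30°C.

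The cell wall lists had members on both sides. Of 27 cell wall synthesis genes, 9 (33.3%) were at least 2-fold higher and 2 (7.41%) lower, beside 19.4% and 15.1% over all genes. With equal column totals 8 were higher and 5 lower. The chitin synthase chs-6 (NCU05268) had 87.2 FPKM in wt DS, 83.3 in wt HS and 1.29 in wt 30°C, a log2 ratio of 6.08, while chs-3 (NCU04251), of the same enzyme family, had 32.2, 16.5 and 84.0. The wall proteins ncw-6 (NCU00586), ncw-3 (NCU07817) and acw-4 (NCU09263) had log2 ratios of 4.03, 3.35 and 3.10, and acw-4 was the most abundant of them with 1716 FPKM in wt DS and 200 in wt 30°C. The lowest was gel-5 (NCU06850), a glucanosyltransferase, with 2.77 FPKM in wt DS and 8.78 in wt 30°C. In the list from the protein tables, an endoglucanase (NCU05404) had 4196 FPKM in wt DS, 2802 in wt HS and 812 in wt 30°C.

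Signaling genes were near the background in number. Of 85 kinase genes, 11 were higher and 11 lower at least 2-fold, beside 19.4% and 15.1% over all genes. With equal column totals 9 were higher and 26 lower. Over all genes, the same scaling took the higher ones from 1556 to 1173 and the lower ones from 1208 to 2005. 5 passed 4-fold higher. stk-21 (NCU03242) had 12.3 FPKM in wt DS, 7.52 in wt HS and 0.356 in wt 30°C, hcp-1 (NCU07221) had 178, 33.5 and 14.2, and stk-22 (NCU03523) had 135, 91.3 and 12.1. stk-37 (NCU06006) and the histidine kinase nik-2 (NCU01833) had log2 ratios of 2.67 and 2.62. The lowest was stk-42 (NCU06422), with 1.85 FPKM in wt DS and 7.78 in wt 30°C. The osmotic stress kinase gene os-2 (NCU07024) itself had 67.1 FPKM in wt DS, 65.1 in wt HS and 113 in wt 30°C.

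Among 17 genes of G proteins, receptors and the cpc symbols, 1 was higher and 4 (23.5%) lower, beside 19.4% and 15.1% over all genes. With equal column totals 7 were lower. The receptor gpr-1 (NCU00786) had 3.88 FPKM in wt DS, 7.81 in wt HS and 0.310 in wt 30°C, and the Gα subunit gna-1 (NCU06493) had 47.5, 17.0 and 127. Of 15 signaling proteins from the protein tables, 5 (33.3%) were at least 2-fold higher and none lower, beside 19.4% and 15.1% over all genes. With equal column totals 5 were higher and 3 lower. Past 4-fold higher were 3 of them, beside 8.86% over all genes. These were Pil1 (NCU02540) and Lsp1 (NCU07495), which form eisosomes under the plasma membrane, and a calcium ATPase (NCU07966). Pil1 had 135 FPKM in wt DS, 681 in wt HS and 4.62 in wt 30°C, and the calcium ATPase had 168, 165 and 19.8.

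Of 34 DNA repair and recombination genes, 8 (23.5%) were higher and 2 (5.88%) lower at least 2-fold, the higher share near the 19.4% over all genes. With equal column totals 5 were higher and 8 lower, and the list median of 0.15 turned to -0.17. mus-18 (NCU08850), a UV damage endonuclease, had 15.1 FPKM in wt DS, 44.2 in wt HS and 2.04 in wt 30°C. mus-8 (NCU09731), a ubiquitin-conjugating enzyme of postreplication repair, had 288 FPKM in wt DS, 340 in wt HS and 69.0 in wt 30°C. msh4 (NCU10895), a meiotic MutS homolog, had the highest ratio of the list from low levels, 3.47 FPKM in wt DS and 0.151 in wt 30°C. mus-52 (NCU00077), the Ku80 of end joining, was the lowest, with 7.70 FPKM in wt DS and 20.8 in wt 30°C. Of 33 RNA silencing and DNA methylation genes, 4 (12.1%) were higher and 3 (9.09%) lower, beside 19.4% and 15.1% over all genes. With equal column totals 4 were higher and 7 lower. nst-5 (NCU00203), a sirtuin, had 32.6 FPKM in wt DS, 12.9 in wt HS and 0.863 in wt 30°C. The Dicer gene dcl-1 (NCU08270) had 14.1, 4.91 and 2.23 FPKM, and the histone deacetylase hda-3 (NCU00824) had 30.8, 64.6 and 6.75. The lowest was dim-8 (NCU06605), of the complex that directs heterochromatin, with 11.8 FPKM in wt DS and 28.6 in wt 30°C.

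The 2 autophagy symbols found, too few for a median, were both at least 2-fold higher, beside 19.4% over all genes. With equal column totals neither was. atg-8 (NCU01545), the ubiquitin-like protein of the autophagosome membrane, had 931 FPKM in wt DS, 1094 in wt HS and 383 in wt 30°C. apg-1 (NCU00188), the kinase that starts autophagy, had 29.6, 59.3 and 12.8 FPKM. Of 9 vacuolar protease and autophagy genes from the protein tables, 2 (22.2%) were higher, near the share over all genes, and none lower. Both of these were peptidase inhibitors (NCU16822 and NCU08677), and Atg3 (NCU01955) had a log2 ratio of 0.46. The list median was 0.46 as well.

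Short genes were higher more often than long ones. In the shortest of 5 length classes of nearly equal size, 30.7% were at least 2-fold higher and 9.74% lower in wt DS, with a median log2 ratio of 0.42. In the longest class, 12.5% were higher and 14.2% lower, with a median of -0.16. The 2 libraries at 30°C differed at least 2-fold either way in 14.4% of the shortest genes and 1.37% of the longest. Among genes with a mean of at least 10 FPKM, 26.6% of the shortest class were higher and 8.78% lower in wt DS. By level, the share at least 2-fold higher was 25.8% at a mean of 1 to 10 FPKM, 15.0% at 10 to 100, 24.7% at 100 to 1000 and 23.5% at 1000 and more. The share lower was 17.3%, 14.7%, 10.1% and 21.4% in the same classes, and the 98 genes of the last had a median log2 ratio of -0.38. Fragment size, RNA integrity and the part of gene length in the changes were not tested.

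**Figure D4:**
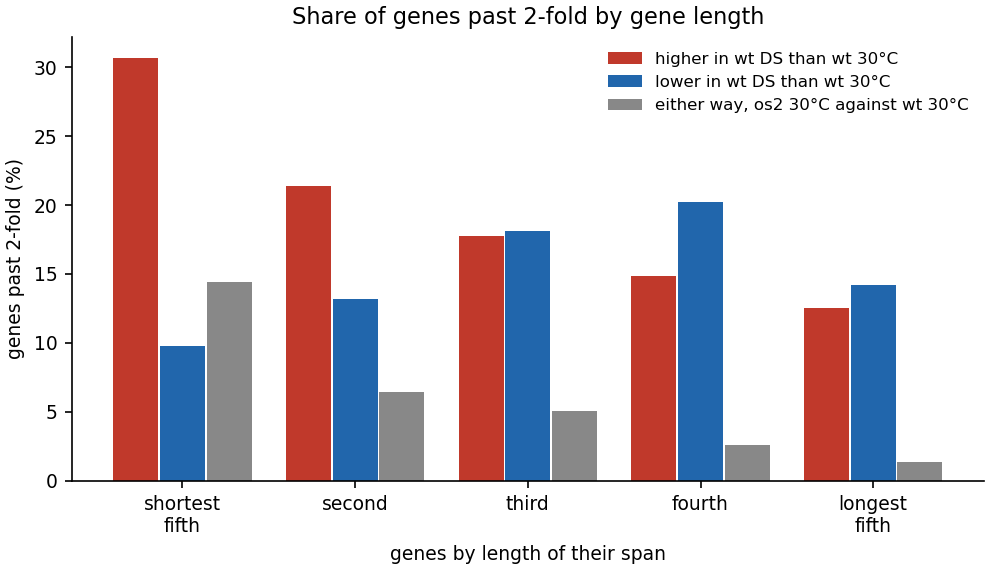
Share of genes past 2-fold (percent) in 5 classes of gene length, shortest to longest, with red for genes higher and blue for genes lower in wt DS than in wt 30°C, and grey for genes past 2-fold either way between os2 30°C and wt 30°C. The red bars step down from 30.7% to 12.5% and the grey bars from 14.4% to 1.37%.

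Genes that were higher lay next to each other more often than other genes. Of the 1556 at least 2-fold higher genes, 730 (46.9%) had a direct neighbour on the chromosome that was also at least 2-fold higher. The share was 29.9% over all genes compared, 26.8% of the 5240 genes within 2-fold and 21.7% of the lower ones. Of the 170 genes at least 16-fold higher, 95 (55.9%) had such a neighbour. Gene spans overlapped that of a neighbour in 22.8% of the higher genes, 27.2% of those within 2-fold and 25.7% of all compared. Transcripts that run past an annotated end were not looked for, and the part of shared reads in these pairs was not tested. The longest runs held 6 consecutive genes, and there were 3 of them, 1 each on chromosomes I, V and VI. The run on chromosome V (2935356 to 2947541, NCU01106 to NCU01112) had log2 ratios between 1.95 and 3.78. Chromosome VI had the largest share of higher genes, 26.8% of 788, and chromosome I the smallest, 15.9% of 2014.

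The same comparison in os2 shares no library with that in wt. Over 7977 genes the log2 ratios of wt DS over wt 30°C and of os2 DS over os2 30°C had a Pearson r of 0.74 and a Spearman rho of 0.70, across genes, which are not independent replicates. In os2, 23.3% of genes were past 2-fold higher and 19.4% lower, 42.7% together. Of the 1539 genes at least 2-fold higher in wt, 1158 (75.2%) were so in os2, where they were 63.4% of the higher genes. Of the 1207 lower in wt, 695 (57.6%) were lower in os2, where they were 44.6% of the lower genes. chs-6 was close in both, with 87.2 FPKM in wt DS and 1.29 in wt 30°C, and 86.3 FPKM in os2 DS and 1.35 in os2 30°C. NCU04266 was far lower in os2 DS, with 24.9 FPKM in os2 DS and 3.63 in os2 30°C.

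Opposite directions of at least 2-fold were rare. Among genes with a mean of at least 10 FPKM, 11 were higher in wt DS and lower in os2 DS and 1 was the reverse. NCU02765 had the largest gap, with 1029 FPKM in wt DS and 129 in wt 30°C, and 38.3 FPKM in os2 DS and 94.9 in os2 30°C. hH2B, hH3 and cytochrome c (cyc-1) were also among the 11. With equal column totals, all 12 kept opposite signs, but 1 of them was still past 2-fold in both strains. The difference between the strains was not tested.

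**Figure D5:**
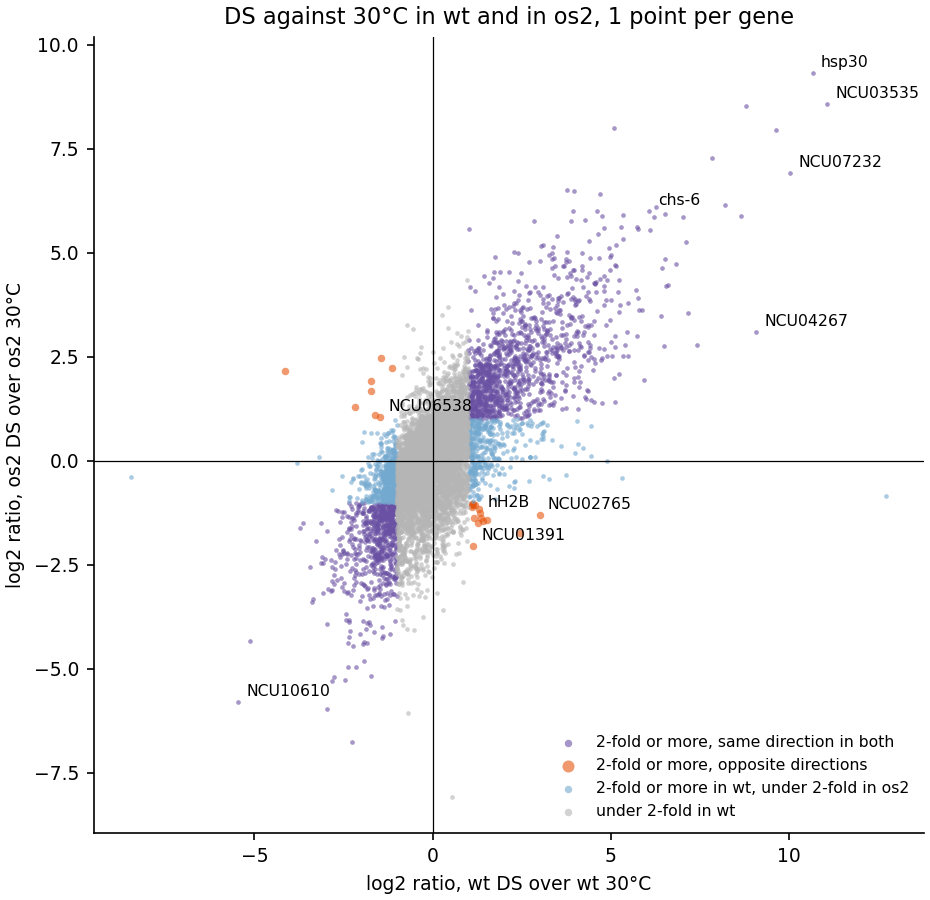
Log2 ratio of DS over 30°C in wt (horizontal) and in os2 (vertical), 1 point per gene, with 11 genes beyond the axes not drawn. Purple points are past 2-fold in the same direction in both strains and orange points past 2-fold in opposite directions, light blue points are past 2-fold in wt and under 2-fold in os2, and the Pearson r over all 7977 genes is 0.74.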

How the data were processed

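RNA of 6 cultures, 1 for each strain and condition, was measured by RNAseq of polyadenylated RNA. Per the study's methods, the authors aligned the reads with TopHat to the N. crassa genome and deposited FPKM values from Cufflinks, 1 table of 9730 genes. CASAVA 1.8.2 is in the submitters' processing notes, and other versions are not given in the sources used here. Groups follow the labelled strain and condition. A blank-named row (1 in all) was dropped. From the deposited FPKM values, log2 ratios without a pseudocount were computed for genes with a mean of at least 1 FPKM and above 0 in both libraries. Changes were counted at 2-fold and 4-fold. Depth was estimated from the steps of low values, and counting intervals cover counting error only. Members and gene lists were chosen with earlier results of these data known. 17 lists came from the study's protein tables, chosen there on protein ratios between strains, and 25 from patterns of RefSeq symbols (assembly NC12), which matched 9729 genes and give a symbol for 1118. Lists under 5 genes got no median. Named genes were the 10 highest and 10 lowest ratios at a mean of at least 10 FPKM, the 10 most abundant in wt DS, the extremes of the lists and their members past 4-fold, genes at 0 in 1 library, and genes opposite in the strains. Others that are named were picked after their values were seen. A planned motif search in promoters was not run, since no genome sequence was used here. Alternatives were 3 scalings, pseudocounts of 0.1 and 1, filters of none and of 10 FPKM, and values below 0.001 FPKM treated as 0. The work was done in Python 3.11.15 with pandas 2.3.3, numpy 2.4.6, matplotlib 3.10.9 and, for intervals, scipy 1.17.1, and was tested on simulated data.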

Additional observations from a re-analysis of the deposited data

Results flagged for a closer look

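These genes, the 6 with the widest gaps, moved at least 2-fold in opposite directions in wt and in os2 between DS and 30°C. The difference was not tested, since each strain had 1 library per condition. NCU02765 had a log2 ratio of 2.996 in wt DS/30 and -1.31 in os2 DS/30. NCU01391 had 1.13 in wt and -2.05 in os2, and NCU03043 had 1.41 in wt and -1.45 in os2. NCU01114 had 1.36 in wt and -1.36 in os2, and hH2B (NCU02435) had 1.32 in wt and -1.26 in os2. NCU06538 was the reverse, with -1.48 in wt and 1.05 in os2. With 1 library per condition, outlying samples within a group could not be looked for.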

How the results depend on the processing

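With 1 library per condition, neither a replicate could be left out nor a spread measured, and depth limits low genes most. No paired analysis was possible because each group has a single replicate, number 1, so that groups share fewer than 2 numbers and no test was made. Scaling the columns to the same total gave 2005 genes at least 2-fold lower and 1173 higher, and a median log2 ratio of -0.32. It moved all 41 list medians by the same -0.32. A mean of at least 10 FPKM left 931 higher and 789 lower genes. Between the libraries at 30°C, the 479 genes past 2-fold became 173 with that filter and 239 with a pseudocount of 1. Without a filter, Pearson r between the strains was 0.11, while Spearman rho was 0.68. Treating values below 0.001 FPKM as 0, chosen after seeing the data, gave 1549 higher and 1202 lower genes. List medians that turned below 0 with equal totals were those of the TCA cycle, respiratory chain, mitochondrial membrane, signaling, vesicle, proteasome, DNA repair and sugar lists, all within 2-fold, and of the most abundant genes aac did so. The glycoside hydrolase median came to -0.01 over the same members and to 0.01 with the filter applied anew. The sugar list also turned below 0 with scaling by the median ratio and with the filter of 10 FPKM, and RNA silencing above 0 without a filter.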
